A study of Mus musculus with 4 samples.

Results

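The genes described here make up the class I antigen presentation machinery of thymic invariant natural killer T (iNKT) cells, together with the lipid-presenting molecule CD1d. They were taken by symbol from the gene column of the deposited matrices and number 10 of 31053 genes. B2m encodes β2-microglobulin, the light chain shared by class I molecules and CD1d. H2-K1 and H2-D1 encode classical class I heavy chains, H2-Q7 encodes a heavy chain of the non-classical Qa-2 family, and Cd1d1 encodes the CD1d heavy chain. Tap1 encodes a subunit of the peptide transporter TAP, Tapbp encodes tapasin, and Psmb8 and Psmb9 encode catalytic subunits of the immunoproteasome. Nlrc5 encodes the transactivator of class I genes.

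The samples were thymic cells that bound CD1d tetramers loaded with the lipid PBS57, sorted as equal numbers of CD44low and CD44high cells from untreated mice aged 8 to 9 weeks. There were 2 C57BL/6 mice (labelled wildtype) and 2 Hivep3-/- mice on a C57BL/6 background, with 1 library per mouse made by droplet sequencing of 5′ transcript ends. The comparisons ask how these genes differ between stages and effector subsets of iNKT cells, and where the gene of the zinc finger protein HIVEP3 is disrupted. The sources used here do not say which part of Hivep3 is missing.

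The 4 libraries held between 31381738 and 48291764 UMIs (unique molecular identifiers, each counting 1 captured transcript), and 3651 to 7231 cells per library were kept, with medians of 4596 to 6833 UMIs per cell. Pairs of libraries shared between 18 and 43 barcodes of kept cells. Hivep3 itself was counted at 239 and 275 CPM (UMIs per 1000000 UMIs) in stage 0-like cells of the C57BL/6 libraries and at 624 and 314 CPM in those of the Hivep3-/- libraries. Counts of 5′ ends do not show which exons a transcript holds, so Hivep3 checks nothing here and Hivep3-/- stands for the label. C57BL/6 replicate 1 held 14609 UMIs of Xist and 0 of Ddx3y, whereas the other 3 libraries held 3 to 25 UMIs of Xist and 1162 to 1580 of Ddx3y, so the genotype contrast includes 1 library that differs in sex-linked transcripts.

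Cells were clustered with all 10 genes left out of the genes used, and clusters were named from marker genes. The stage 0-like class (named from markers of the earliest precursors) held 123 to 407 cells per library, and the cycling-like class 221 to 1176. The iNKT2-like class held 414 to 1602, the iNKT17-like class 126 to 222 and the iNKT1-like class 1919 to 2871. The clusters that took no name held between 12.7% and 16.7% of the cells of a library. The stage 0-like class was made of 2 clusters. Cluster 8 (674 cells, with Nrgn, Slamf6 and Lef1 among its leading genes) had 0 UMIs of Rag1, Rag2 and Ptcra, and its 7 markers of double positive thymocytes summed to between 16.8 and 31.1 CPM. Cluster 11 (592 cells, led by Cd24a, Cd8b1 and Cldn10) had 257 to 545 CPM of the same markers, of which Cd8b1 made up 143 to 336 CPM. Cd24a was not among the 10 leading genes of cluster 8, so that cluster was not shown to hold the earliest precursors. Cluster 8 cells had a median of 7673.5 UMIs, against 2733 in cluster 11, and so weighed more in the sums of the class. The tests of the 10 genes that rest on stage 0-like cells were therefore also made with either cluster alone. The values of the pathway and interferon lists, the correlations and the thinned cells used the whole class only.

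Proteasomes, among them the immunoproteasome of blood-derived and interferon-exposed cells, cut proteins into peptides, TAP carries the peptides into the endoplasmic reticulum, and tapasin holds empty class I molecules at TAP until a peptide is bound. CD1d is built on the same light chain but presents lipids, and its display by double positive thymocytes is what selects iNKT cells. Class I genes are switched on by NLRC5, which acts through the X and Y boxes of their promoters, by interferons through an interferon-stimulated response element (ISRE), and by κB-binding proteins through an element named enhancer A. HIVEP family proteins bind κB-like DNA, and members of this family were first isolated as proteins that bind enhancer A.

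Of the 10 genes, 7 lie on chromosome 17 (GENCODE vM21 annotation of mm10). H2-K1 spans chr17:33996017-34000347 on the minus strand, and Tapbp lies at chr17:33915899-33929292. Psmb9 (chr17:34181987-34187764), Tap1 (chr17:34187553-34197225) and Psmb8 (chr17:34197721-34201454) are neighbours, and the RefSeq starts of Psmb9 and Tap1 lie 225 bp apart on opposite strands. H2-D1 lies at chr17:35262730-35267499 and H2-Q7 at chr17:35439155-35443773. B2m is at chr2:122147686-122153083, Cd1d1 at chr3:86995834-86999441 and Nlrc5 at chr8:94434356-94527272.

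RefSeq promoter sequences (GRCm38.p6) were matched for 8 of the 10 genes, all but Cd1d1 and Nlrc5. The heavy chain promoters are shown because these genes rose at both steps in both genotypes, and that of B2m because its protein pairs with theirs. Capitals mark matches on either strand to the letters of enhancer A (GGGGATTCCC), the ISRE (GAAGTGAAA in the heavy chain genes, GAAANNGAAA in B2m), the X2 core (TGACG) and the Y box core (CCAAT). These letters were chosen after these promoters had been read. Those of enhancer A and GAAGTGAAA were copied from the H2-K1 promoter itself, and those of GAAANNGAAA from that of B2m. The stretches run from 200 bases before the RefSeq start to the base before it, or to the second base before it for B2m, at chr17:34000348-34000547 (minus strand), chr17:35438955-35439154 (plus strand) and chr2:122147487-122147685 (plus strand).

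H2-K1: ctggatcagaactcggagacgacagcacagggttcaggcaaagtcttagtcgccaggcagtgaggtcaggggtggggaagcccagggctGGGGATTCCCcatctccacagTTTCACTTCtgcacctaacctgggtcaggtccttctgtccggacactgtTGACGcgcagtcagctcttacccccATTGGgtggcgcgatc

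H2-Q7: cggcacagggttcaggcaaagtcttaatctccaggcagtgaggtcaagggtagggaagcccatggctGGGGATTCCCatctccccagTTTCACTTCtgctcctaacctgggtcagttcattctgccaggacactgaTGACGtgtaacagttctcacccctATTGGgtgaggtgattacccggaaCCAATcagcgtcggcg

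B2m: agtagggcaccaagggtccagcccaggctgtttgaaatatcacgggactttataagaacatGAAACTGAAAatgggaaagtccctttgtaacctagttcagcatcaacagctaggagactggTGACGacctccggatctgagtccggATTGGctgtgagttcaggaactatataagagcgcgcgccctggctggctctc

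The promoter of H2-D1 overlaps an exon of a longer annotated transcript, so its shared core is given alone, at chr17:35262923-35262952, above the same stretch of the other 2 heavy chain genes (chr17:34000429-34000458 and chr17:35439022-35439050).

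H2-D1: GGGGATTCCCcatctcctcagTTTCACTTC

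H2-K1: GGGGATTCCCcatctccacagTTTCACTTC

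H2-Q7: GGGGATTCCCatctccccagTTTCACTTC

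In these 3 genes the end of the ISRE lay 30, 30 and 29 bases from the first base of enhancer A, counting both, and the X2 core began 70, 70 and 69 bases after it in H2-K1, H2-D1 and H2-Q7. In the 250 bases upstream of 27018 genes, enhancer A was found in 22 (0.0814%), GAAGTGAAA in 116 (0.429%), GAAANNGAAA in 821 (3.04%), the X2 core in 4827 (17.9%) and the Y box core in 9313 (34.5%). Enhancer A, GAAGTGAAA, the X2 core and the Y box core occurred together in 3 of the 27018 promoters, which were those of H2-K1, H2-D1 and H2-Q7. Enhancer A and GAAGTGAAA were copied from H2-K1, so its own match to them was fixed beforehand and the count is no independent test. A match of letters is a description and does not show that a protein bound there.

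The near-identity of class I genes also bears on the counts. Of all 50-base windows in the first 500 bases of their annotated transcripts, 44.5% of those of H2-Q7, 15.9% of Cd1d1, 11.7% of H2-D1 and 10.9% of H2-K1 occurred in another gene, most often another class I gene, against at most 2.3% for each of the other 6. Reads that fall in such windows can be lost or split, so the levels of these 4 genes are uncertain.

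The heavy chains H2-K1, H2-D1 and H2-Q7 rose at each step from stage 0-like to iNKT2-like to iNKT1-like cells, in both genotypes, and Nlrc5 rose with them. B2m, as a share of UMIs, rose to the iNKT2-like stage and was not called different afterwards. Tap1, Tapbp and Psmb9 rose to the iNKT2-like stage, and after that Tapbp and Psmb9 fell in C57BL/6 cells. Psmb8 and Cd1d1 went the other way and were lower in iNKT1-like cells than in the whole stage 0-like class. Whether that difference was called depended on which stage 0-like cluster was used, for Psmb8 in both genotypes and for Cd1d1 in C57BL/6. Levels are UMIs per 1000000 UMIs of a library's cells in that class (CPM), and log2 differences come from edgeR's quasi-likelihood test with library as a block, with standard errors (SE) and Benjamini-Hochberg adjusted p-values over all genes tested. Each SE was derived as the absolute log2 difference divided by the square root of the test's F statistic, and is approximate where counts are low.

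H2-K1 stood at 140, 139, 187 and 100 CPM in the stage 0-like cells of C57BL/6 replicates 1 and 2 and Hivep3-/- replicates 1 and 2, the order used for every list of 4 values that follows. It stood at 526, 596, 1117 and 506 CPM in cycling-like, 793, 808, 1403 and 943 CPM in iNKT2-like, 929, 782, 1615 and 1047 CPM in iNKT17-like and 2622, 2573, 3467 and 2688 CPM in iNKT1-like cells. The lowest iNKT1-like library thus lay above the highest library of every other class, whereas iNKT2-like and iNKT17-like cells overlapped. The log2 difference of iNKT1-like over stage 0-like cells was 4.49 ± 0.09 (SE, n = 2 libraries, edgeR adjusted p = 1.06e-21) in C57BL/6 and 4.83 ± 0.15 (adjusted p = 1.07e-12) in Hivep3-/-. In cells thinned to 2000 UMIs, the median stage 0-like cell held 0 UMIs of H2-K1 in each library, the median iNKT2-like cell 1 or 2, and the median iNKT1-like cell 5 to 7.

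H2-D1 was measured at 276, 260, 488 and 295 CPM in stage 0-like cells. It reached 1281, 1323, 1957 and 1436 CPM in iNKT2-like and 2464, 2496, 3462 and 2650 CPM in iNKT1-like cells, with 1009, 1099, 1685 and 1015 CPM in cycling-like and 1245, 1044, 2183 and 1391 CPM in iNKT17-like cells. No stage 0-like library overlapped any library of the other classes. H2-D1 gained 2.53 ± 0.07 log2 units from stage 0-like to iNKT2-like and 0.94 ± 0.06 from iNKT2-like to iNKT1-like cells of C57BL/6. The matching steps in Hivep3-/- were 2.48 ± 0.09 and 0.87 ± 0.08, and all 4 steps were called. When UMIs per cell were compared in place of shares of UMIs, the C57BL/6 step from iNKT2-like to iNKT1-like cells turned to -0.14, while the median of all genes moved by -1.09.

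H2-Q7 held only 9, 9, 25 and 2 UMIs in stage 0-like cells (5.46, 11.2, 10.2 and 0.824 CPM). Its levels were 78.9, 61.9, 116 and 117 CPM in iNKT2-like and 295, 339, 442 and 395 CPM in iNKT1-like cells. The log2 gain from stage 0-like to iNKT2-like cells was 3.54 ± 0.26 in C57BL/6 and 4.77 ± 0.47 in Hivep3-/-, and from iNKT2-like to iNKT1-like cells it was 2.16 ± 0.10 and 1.85 ± 0.24. The first gain in Hivep3-/- includes the 2 UMIs of replicate 2.

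B2m showed a different course, with 467, 376, 465 and 469 CPM in stage 0-like cells, 1357, 1564, 1378 and 1342 CPM in cycling-like cells and 2082, 2195, 2060 and 2390 CPM in iNKT2-like cells. Its level was 1621, 1635, 1926 and 1835 CPM in iNKT17-like and 1970, 2224, 2275 and 2625 CPM in iNKT1-like cells. The first step was 2.57 ± 0.08 log2 units in C57BL/6 (adjusted p = 1.22e-17) and 2.59 ± 0.08 in Hivep3-/-. The second was -0.02 ± 0.07 (adjusted p = 0.847) and 0.15 ± 0.07 (adjusted p = 0.126), and neither was called. Both values compare shares of UMIs. Comparing UMIs per cell moved the median of all genes at this step by -1.09 in C57BL/6 and -0.57 in Hivep3-/-.

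Nlrc5 was sparse. It held 3, 3, 12 and 7 UMIs in stage 0-like cells (1.82, 3.74, 4.90 and 2.88 CPM) and stood at 13.6, 13.6, 19.4 and 17.4 CPM in iNKT2-like and 29.2, 40.7, 44.9 and 32.0 CPM in iNKT1-like cells. The 3 groups of libraries did not overlap. From stage 0-like to iNKT1-like cells, Nlrc5 gained 4.03 ± 0.36 log2 units in C57BL/6 and 3.64 ± 0.24 in Hivep3-/-, both called. Over the 20 sums of a library and a class (which share libraries and depth), log2 levels of Nlrc5 and H2-K1 had a Pearson r of 0.97, and those of H2-K1 and H2-D1 0.99.

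**Figure D1:**
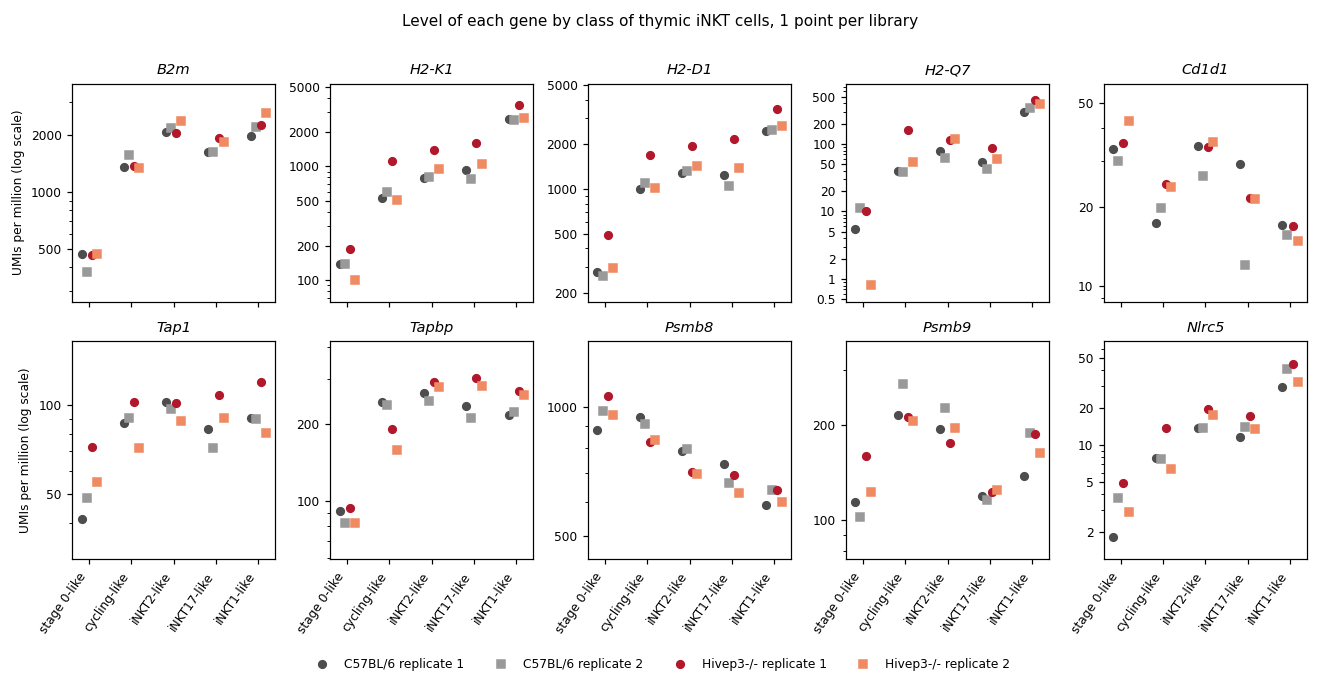
CPM (log axis) of each of the 10 genes in the 5 classes of iNKT cells, 1 point per library. H2-K1, H2-D1, H2-Q7 and Nlrc5 were highest in iNKT1-like cells of every library, and B2m levelled off after the stage 0-like and cycling-like classes. Psmb8 and Cd1d1 were lower in iNKT1-like cells than in the whole stage 0-like class, a difference that depended on which stage 0-like cluster was used.

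The peptide loading genes Tap1 and Tapbp rose at the first step. Tap1 stood at 41.3, 48.7, 72.3 and 55.2 CPM in stage 0-like and 102, 97.1, 102 and 88.5 CPM in iNKT2-like cells, a rise of 1.44 ± 0.13 log2 units in C57BL/6 and 0.93 ± 0.11 in Hivep3-/-. Its iNKT1-like levels of 90.3, 89.5, 120 and 80.7 CPM overlapped the iNKT2-like ones, and the second step was not called (-0.14 ± 0.08 and 0.07 ± 0.09). Tapbp went from 91.7, 82.4, 93.5 and 82.0 CPM to 264, 247, 293 and 281 CPM and then to 218, 224, 269 and 260 CPM. Its first step was called at 1.797 ± 0.098 in C57BL/6 and 2.05 ± 0.09 in Hivep3-/-, and its second at -0.20 ± 0.07 in C57BL/6 (adjusted p = 0.0201), while -0.11 ± 0.08 in Hivep3-/- was not called.

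The immunoproteasome subunits did not share a course. Psmb8 was already at 883, 975, 1059 and 958 CPM in stage 0-like cells and stood at 788, 798, 704 and 698 CPM in iNKT2-like and 592, 641, 640 and 602 CPM in iNKT1-like cells, so that the iNKT1-like and stage 0-like libraries did not overlap. The difference of iNKT1-like over stage 0-like cells was -0.32 ± 0.06 in C57BL/6 and -0.35 ± 0.06 in Hivep3-/-, both called. Psmb8 depended on which stage 0-like cells were used. With cluster 11 alone it was 0.20 and 0.09, not called in either genotype, and the cluster 11 levels of 814, 641, 847 and 783 CPM lay below the 905, 1037, 1129 and 1013 CPM of cluster 8. Psmb9 stood at 114, 102, 159 and 123 CPM in stage 0-like, 216, 270, 212 and 207 CPM in cycling-like and 195, 226, 175 and 196 CPM in iNKT2-like cells. It was at 119, 116, 123 and 125 CPM in iNKT17-like and 138, 189, 187 and 164 CPM in iNKT1-like cells. Its first step was 1.16 ± 0.12 in C57BL/6 and 0.74 ± 0.11 in Hivep3-/-, both called, and its second was called only in C57BL/6 (-0.36 ± 0.09 against -0.07 ± 0.10), a contrast between genotypes that was not tested for this step.

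Cd1d1 was found at 33.4, 29.96, 35.1 and 42.8 CPM in stage 0-like, 34.3, 26.4, 34.0 and 35.4 CPM in iNKT2-like, 29.2, 12.1, 21.7 and 21.4 CPM in iNKT17-like and 17.1, 15.6, 17.02 and 14.9 CPM in iNKT1-like cells. Stage 0-like and iNKT2-like libraries overlapped, and each iNKT1-like library lay below all of both. The first step was not called (0.22 ± 0.21 and 0.17 ± 0.14), and the second was -0.90 ± 0.15 in C57BL/6 and -1.10 ± 0.13 in Hivep3-/-, both called. The stage 0-like level of Cd1d1 was unevenly spread over the 2 clusters, with 57.8, 104, 52.7 and 74.0 CPM in cluster 11 (23, 13, 32 and 43 UMIs) and 25.6, 16.3, 29.3 and 33.0 CPM in cluster 8. The double positive thymocyte markers given above moved with Cd1d1 between these clusters, and their part in the result was not tested. With cluster 8 alone the difference of iNKT1-like over stage 0-like cells in C57BL/6 shrank from -0.68 ± 0.23 to -0.19 (adjusted p = 0.602) and was no longer called. In Hivep3-/- it went from -0.93 ± 0.14 to -0.66 and was still called. The first step, from cluster 8 to iNKT2-like cells, was then 0.71 in C57BL/6 and 0.44 in Hivep3-/-, both called.

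In C57BL/6, 8 of the 10 genes were called between iNKT2-like and stage 0-like cells, all higher, where 37.1% of all genes tested were called, 17.2% higher and 19.9% lower. Between iNKT1-like and iNKT2-like cells 8 were called, 4 higher and 4 lower, against 49.7% of all genes (26.5% higher and 23.1% lower). Between iNKT1-like and stage 0-like cells all 10 were called, 8 higher and 2 lower, against 49.8% (24.5% and 25.4%). In Hivep3-/- the first step called 9 (8 higher, 1 lower) against 43.6% of all genes (21.8% in each direction). The second called 5 (4 higher, 1 lower) against 34.7% (17.8% higher and 16.9% lower), and iNKT1-like over stage 0-like cells 10 (8 higher, 2 lower) against 58.5% (28.8% and 29.6%). The median log2 difference of the 10 genes was 2.16 for iNKT2-like over stage 0-like cells in C57BL/6 and 2.26 in Hivep3-/-, where the medians of all genes tested were -0.05 and -0.02. The classes are clusters of the same cells, so these p-values do not measure whether the classes are distinct. With library as a block, they measure how differences between the 5 classes varied from mouse to mouse within a genotype.

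**Figure D2:**
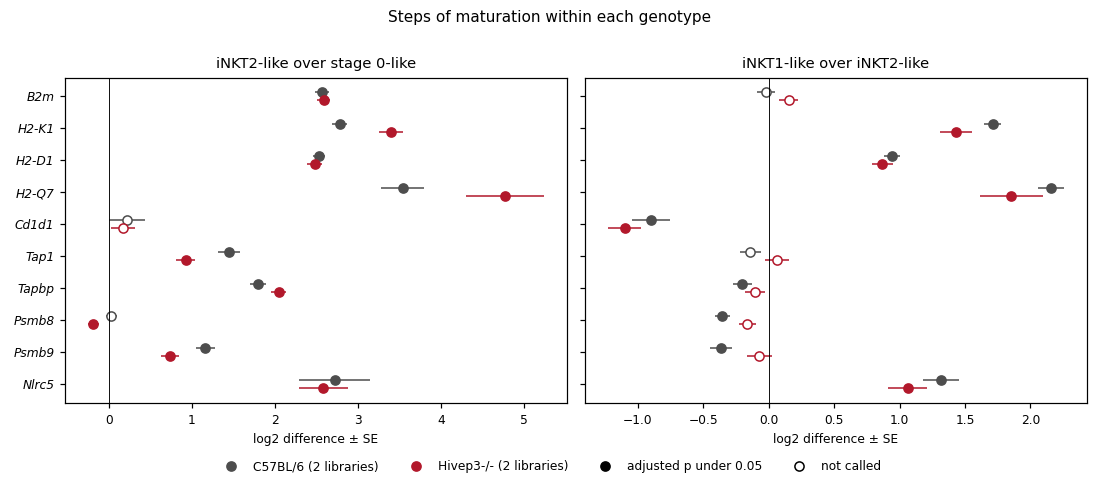
Log2 difference ± SE of each gene for iNKT2-like over stage 0-like cells (left) and iNKT1-like over iNKT2-like cells (right), 2 libraries per genotype, with filled points for an adjusted p under 0.05. The heavy chains and Nlrc5 lie right of 0 in both steps, B2m, Tap1 and Tapbp have filled points right of 0 in the first step alone, and Cd1d1 lies left of 0 in the second.

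Within the iNKT1-like class the clusters differed in the same genes. H2-K1 was at 2144, 1993, 2794 and 2235 CPM in cluster 4, with Gzmb among its leading genes, and at 3083, 3339, 4161 and 3259 CPM in the interferon-signature cluster 6. Cd1d1 was at 6.09, 9.07, 9.80 and 7.30 CPM in cluster 4, below the 14.6 to 22.9 CPM of clusters 0, 2 and 6. Among the cells without a name, cluster 7 (led by Tnni1 and Htra3) had 37.0 to 53.3 CPM of Cd1d1 and 634 to 1001 CPM of H2-K1, whereas cluster 3 (led by Gm8369 and Klra3) had 2229 to 3142 CPM of H2-K1. The smallest cycling-like cluster, number 15, had 1849, 1943, 3864 and 1936 CPM of H2-K1 where the largest, number 5, had 457, 453, 612 and 388 CPM.

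Other genes of the pathway were taken from a list of 33, of which 31 were tested in these steps. Between iNKT1-like and stage 0-like cells 16 were higher and 6 lower in C57BL/6, and 18 were higher and 6 lower in Hivep3-/-. Of all genes tested, 24.5% were higher and 25.4% lower in C57BL/6, and 28.8% higher and 29.6% lower in Hivep3-/-. Of the 7 other heavy chain genes tested, 6 were higher in either genotype, among them H2-Q6 (6.40 and 8.38 log2 units) and H2-Q4 (3.25 and 2.68), and Mr1 was not called. Irf1, a transcription factor of interferon responses, rose by 2.46 and 2.53 log2 units. Tapbpl, which encodes the peptide editor TAPBPR, rose by 2.48 and 1.76, while Tap2, the partner of Tap1, fell by 0.56 and 0.42. The inducible proteasome genes of the list, Psmb10, Psme1 and Psme2, were higher (3 of 3 in each genotype), as was Psmb9. The inducible Psmb8 was lower when the whole stage 0-like class was used. The constitutive Psmb5, Psmb6 and Psmb7 were lower (3 of 3 in each).

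The counts for the pathway list at the separate steps were 14 higher and 3 lower (iNKT2-like over stage 0-like, C57BL/6), led by H2-Q6 (3.11), Irf1 (2.19), H2-Q4 (2.06) and H2-T24 (1.57), and 17 higher and 5 lower in Hivep3-/-, led by H2-Q6 (5.52), Irf1 (2.21), H2-Q4 (1.83) and H2-T22 (1.46). For iNKT1-like over iNKT2-like cells they were 13 higher and 11 lower in C57BL/6, led by H2-Q6 (3.29), H2-Q4 (1.195), Mr1 (1.03) and Tapbpl (0.97). In Hivep3-/- they were 9 higher and 6 lower, led by H2-Q6 (2.86), Tapbpl (0.89), H2-Q4 (0.85) and H2-M3 (0.46). Of all genes tested, the first step called 17.2% higher and 19.9% lower in C57BL/6 and 21.8% in each direction in Hivep3-/-. The second called 26.5% higher and 23.1% lower in C57BL/6, and 17.8% higher and 16.9% lower in Hivep3-/-. H2-Q6 is among the genes that share windows with H2-Q7, so its level is uncertain too.

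Genes of the interferon response moved at the same first step. Of a list of 30, such as Isg15, Ifit3 and Bst2, all 30 were higher in iNKT2-like than in stage 0-like cells in both genotypes, and between iNKT1-like and iNKT2-like cells 12 were higher and 8 lower in C57BL/6, 9 higher and 7 lower in Hivep3-/-. The shares of all genes called at these steps are those given beside the pathway list. Among 5320 other genes averaging 20 CPM or more over the 20 sums, those most like B2m were Ifi213 and Slfn2 (r = 0.98 for both), Slfn1, Ccr8 and Ncf4 (0.97 for each). Those most like Cd1d1 were Ephx1 (0.83), Tacc2 and Hibadh (0.81), Tox and Pisd (0.80). These correlations describe points that share libraries, classes and depth.

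The interferon-signature cluster lay inside the iNKT1-like class and was led by Ifit3, Ifit3b and Ifit1. It held 271, 205, 286 and 160 cells, and its thinned cells had medians of 21 to 24 UMIs per 2000 of the 30 interferon-response genes against 4 in the other iNKT1-like cells of each library. All 10 genes were higher there than in the other iNKT1-like cells, where 14.8% of all genes tested were called, 8.09% higher and 6.69% lower. Each was higher in 4 of 4 libraries. Tap1 and Tapbp differed most, and B2m and the heavy chains least.

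Tap1 stood at 177, 192, 230 and 159 CPM in the interferon-signature cluster and at 81.5, 78.0, 108 and 74.8 CPM in the other iNKT1-like cells, a log2 difference of 1.18 ± 0.06 (n = 4 libraries, edgeR adjusted p = 3.03e-16). Tapbp was at 342, 409, 488 and 510 CPM against 205, 203, 246 and 241 CPM, a difference of 1.002 ± 0.049. For both genes the lowest library of the cluster lay above the highest of the other cells. Psmb9 differed by 0.83 ± 0.05, Nlrc5 by 0.84 ± 0.11 and Psmb8 by 0.65 ± 0.03. Psmb8 had 836, 933, 933 and 926 CPM in the cluster against 567, 608, 610 and 578 CPM.

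B2m (2303, 2818, 2780 and 3324 CPM against 1936, 2157, 2223 and 2572 CPM) differed by 0.37 ± 0.02, H2-K1 by 0.36 ± 0.02, H2-Q7 by 0.29 ± 0.04 and H2-D1 by 0.28 ± 0.02. For these genes the libraries of the 2 groups overlapped, and without library as a block none of the 4 was called. Cd1d1 had 22.2, 19.8, 22.6 and 20.3 CPM against 16.6, 15.2, 16.4 and 14.5 CPM and differed by 0.48 ± 0.16 (adjusted p = 0.0320). Its call was lost when any 1 library was left out (0.47 to 0.50), with DESeq2 and without the filter on low counts. The 10 genes were left out of the clustering, and the interferon-response genes were not.

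**Figure D3:**
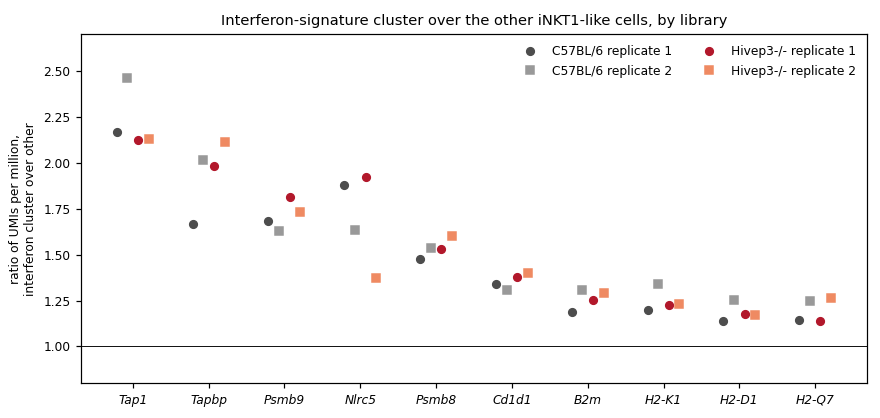
Ratio of CPM in the interferon-signature cluster to that in the other iNKT1-like cells, for each gene and library. All 40 points lie above 1, from 1.14 for H2-D1 and H2-Q7 to 2.46 for Tap1.

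Of the pathway list, 14 of 30 tested genes were higher and 2 lower in the interferon-signature cluster, led by H2-T24 (2.18), H2-T22 (1.33), H2-T23 (0.91) and Tap2 (0.76). Of all genes tested, 8.09% were higher and 6.69% lower. Psmb10, Psme1 and Psme2 were higher, and of the constitutive subunits Psmb5 was lower and Psmb6 and Psmb7 were not called. Only 1 of the 5 class II genes passed the filter on low counts, Cd74, at 24.4, 188, 2.76 and 2.14 CPM in the cluster. C57BL/6 replicate 2 also held the Cd79a (28.2 CPM) and H2-Aa (22.96 CPM) of this cluster, at 0 in the other 3 libraries, and without this replicate 9 of the 10 genes were called, all but Cd1d1.

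B2m, H2-K1 and H2-D1 also differed between iNKT1-like cells that lay almost wholly outside that cluster. In iNKT1-like cells thinned to 2000 UMIs and split by their UMIs of the 30 interferon-response genes, cells with 0 such UMIs held 3.22, 3.83, 4.08 and 4.75 UMIs of B2m, and cells with 6 to 10 held 4.23, 4.74, 4.90 and 5.67. Between 7 and 10 cells of the latter group in each library belonged to the interferon-signature cluster, out of 374 to 703. Cells with 11 or more held 4.66, 5.53, 5.37 and 6.41. H2-K1 went from 4.86, 4.42, 5.84 and 4.64 in cells with 0 to 5.98, 5.77, 7.39 and 6.09 in cells with 6 to 10 and 6.38, 6.54, 8.42 and 6.34 in cells with 11 or more. H2-Q7 did not rise through the groups in every library. In C57BL/6 replicate 2 it was at 0.699 in cells with 3 to 5 and 0.618 in cells with 6 to 10.

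Tap1 went from 0.103, 0.0682, 0.142 and 0.110 UMIs to 0.201, 0.201, 0.220 and 0.143 and then to 0.257, 0.341, 0.373 and 0.231. Tapbp went from 0.302, 0.307, 0.358 and 0.415 to 0.492, 0.503, 0.504 and 0.487 and then to 0.643, 0.705, 0.847 and 0.869. Cd1d1 had no such course in Hivep3-/- replicate 2 (0.0339 in cells with 0 and 0.0278 with 11 or more, from 4 and 10 UMIs) or C57BL/6 replicate 2 (0.0455 and 0.0379, from 4 and 14 UMIs). Across single cells, Spearman's rho with the interferon-response UMIs was 0.19 to 0.21 for B2m and 0.18 to 0.23 for H2-K1. It was -0.01 to 0.04 for Cd1d1 and 0.04 to 0.05 for Nlrc5. These values describe 1871 to 2838 cells per library. Cd1d1 and Nlrc5 were sparse, and the effect of few UMIs on rho was not tested.

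**Figure D4:**
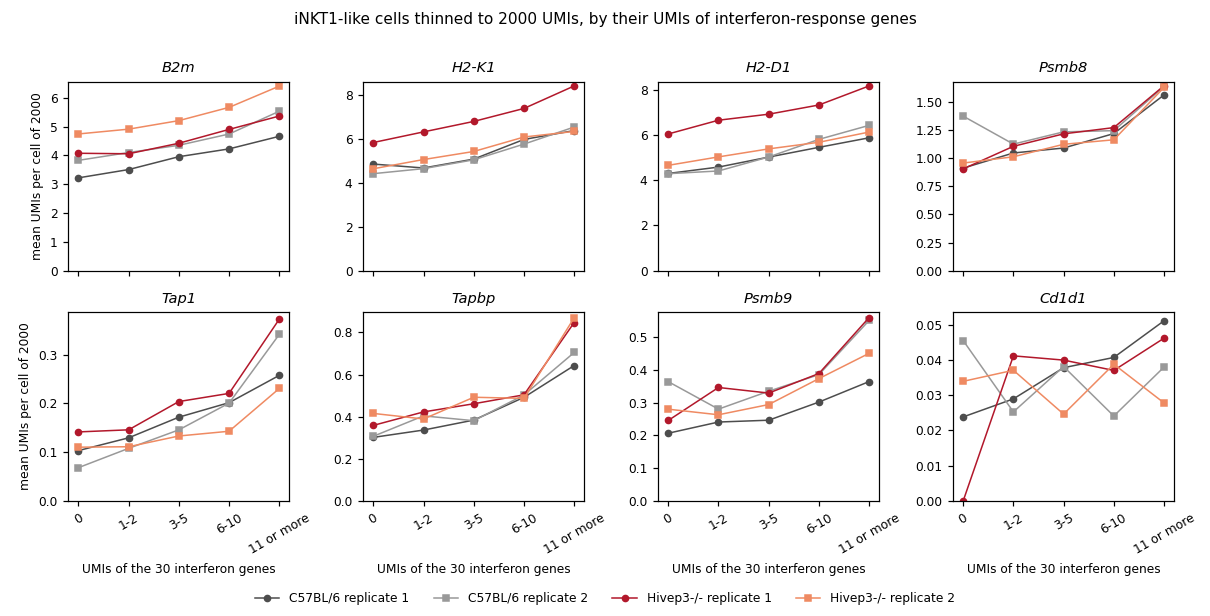
Mean UMIs per iNKT1-like cell, after thinning each cell to 2000 UMIs, in 5 groups of cells by their UMIs of 30 interferon-response genes, 1 line per library. B2m, H2-K1 and H2-D1 rose through the groups in each library from 1-2 UMIs on, Tap1, Tapbp and Psmb8 were highest in the last group of each library, and Cd1d1 did not follow the groups in every library.

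The interferon-signature cluster made up 9.63%, 10.7%, 9.96% and 7.29% of iNKT1-like cells. The Hivep3-/- mean of 8.63% ± 1.89 (SD, n = 2) lay 1.53 points below the C57BL/6 mean of 10.2% ± 0.742, with a two-sided exact permutation p of 0.667 where the smallest that 2 against 2 libraries can give is 0.333. The sort fixed the mix of CD44low and CD44high cells and thus part of any share.

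Between genotypes, 1 of the tests of each gene in 5 classes was called, in a design of 2 libraries against 2. Tapbp was lower in cycling-like cells of the libraries labelled Hivep3-/- (244 and 237 CPM in C57BL/6 against 191 and 159 CPM), by 0.62 ± 0.13 on the log2 scale (adjusted p = 0.0443), in a class where 4.25% of all genes were called, 2.18% higher and 2.08% lower. The call was lost with unscaled UMI totals (-0.46), with coarser clusters (-0.58) and without C57BL/6 replicate 1 (-0.61), C57BL/6 replicate 2 (-0.64) or Hivep3-/- replicate 2 (-0.54). In the iNKT1-like class Tapbp was 218 and 224 against 269 and 260 CPM, in the other direction and not called.

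No other member was called in cycling-like cells, and none in any other class. In stage 0-like cells, where Nlrc5 was too low and 9 were tested, 0.574% of all genes were called (0.135% higher, 0.439% lower). In iNKT1-like cells 0.694% were called (0.487% higher, 0.206% lower), in iNKT2-like cells 0.556% (0.154% and 0.401%) and in iNKT17-like cells 0.0657% (0.0394% and 0.0263%). At an unadjusted p under 0.05 edgeR gave 1 of the genes in iNKT1-like, 3 in iNKT17-like, 2 in iNKT2-like, 4 in cycling-like and 0 in stage 0-like cells. The share of all genes at that unadjusted threshold was not computed, so these counts have no background and the shares above do not serve as one. DESeq2 called Tapbp in cycling-like cells and none in the other classes.

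Among the differences that were not called, H2-Q7 in cycling-like and iNKT2-like cells had the lowest adjusted p-values. H2-Q7 was higher in both Hivep3-/- libraries than in both C57BL/6 libraries in 4 of the 5 classes, all but stage 0-like, and H2-D1 also in 4, all but cycling-like. For H2-K1 and Tapbp this held in 3 classes, iNKT2-like, iNKT17-like and iNKT1-like. It held in 2 classes for each of B2m, Cd1d1, Tap1 and Psmb9, in 1 for Nlrc5 and in 0 for Psmb8. Of all genes tested, 25.3% in iNKT1-like, 22.8% in iNKT17-like, 30% in iNKT2-like, 40.2% in cycling-like and 31.1% in stage 0-like cells lay that way. Both Hivep3-/- libraries lay below both C57BL/6 libraries for Psmb8 in 2 classes, cycling-like and iNKT2-like, and for Tapbp and Psmb9 in cycling-like cells. In each of these classes 14% of all genes tested lay below. H2-Q7 differed by 0.33 ± 0.13 (edgeR adjusted p = 0.579) in iNKT1-like, 0.53 ± 0.24 (0.908) in iNKT17-like, 0.63 ± 0.16 (0.164) in iNKT2-like, 1.25 ± 0.40 (0.146) in cycling-like and -0.59 ± 0.82 (0.893) in stage 0-like cells, and none was called.

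Much of the difference in the higher direction lay in 1 library. Hivep3-/- replicate 1 was the highest of the 4 libraries in 5 of 5 classes for H2-K1, H2-D1 and Nlrc5, in 4 for Tap1 and Tapbp and in 3 for H2-Q7. The share of all genes for which it was the highest was not computed, so these counts have no background. This library also had the highest median of UMIs per kept cell (6833). Its H2-K1 exceeded the next library by 1.87 times in cycling-like, 1.54 times in iNKT17-like, 1.49 times in iNKT2-like, 1.34 times in stage 0-like and 1.29 times in iNKT1-like cells. For B2m it was the highest in 1 class. Hivep3-/- replicate 2 had 506 CPM of H2-K1 in cycling-like and 2688 CPM in iNKT1-like cells, against 526 and 596 CPM and 2622 and 2573 CPM in C57BL/6. Without Hivep3-/- replicate 2, H2-Q7 (1.803) and H2-K1 (0.79) were called higher in cycling-like cells, H2-K1 in iNKT2-like cells (0.65), H2-D1 in iNKT17-like cells (0.81) and H2-D1 in stage 0-like cells (0.68), each then a single Hivep3-/- library against 2. H2-Q7 was also called in cycling-like cells without C57BL/6 replicate 2 (1.24) and in iNKT2-like cells without C57BL/6 replicate 1 (0.81). With cluster 15 (10, 11, 26 and 16 cells) left out of the cycling-like class of all 4 libraries, H2-Q7 differed by 0.58 and H2-K1 by -0.0019, neither called, while Tapbp was called at -0.65.

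**Figure D5:**
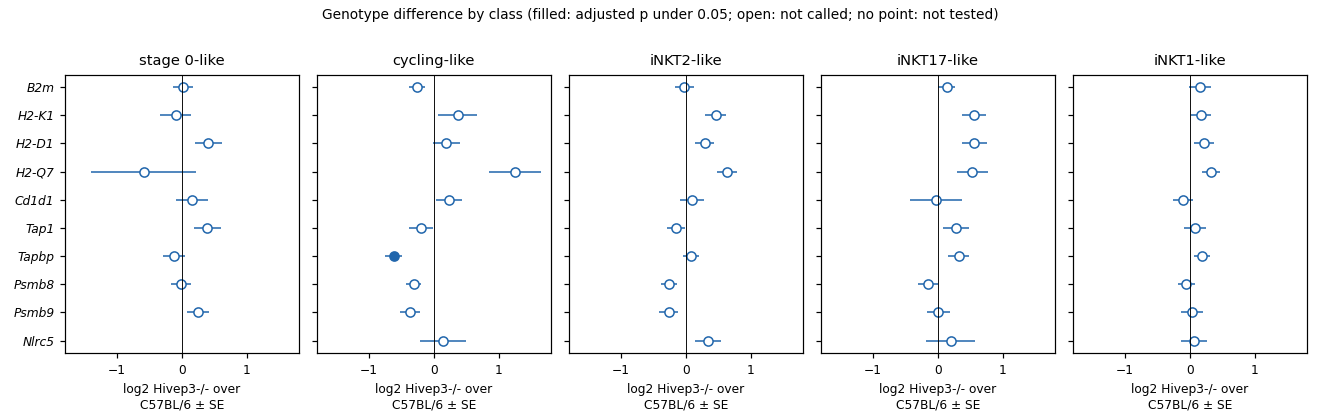
Log2 difference ± SE of Hivep3-/- over C57BL/6 for each gene in the 5 classes, 2 libraries against 2, with a filled point for an adjusted p under 0.05. The only filled point is Tapbp in cycling-like cells (-0.62), and H2-Q7 lies right of 0 in 4 of 5 classes.

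The rise from stage 0-like to iNKT1-like cells was set against genotype with an interaction term, fitted to all 5 classes. None of the 10 genes was called by edgeR, against 3.13% of all genes tested (1.83% higher, 1.3% lower), and DESeq2 called 0 as well. At an unadjusted p under 0.05 edgeR gave 1, Tapbp (0.32 ± 0.13, adjusted p = 0.232). The share of all genes at that unadjusted threshold was not computed. H2-K1 differed by 0.32 ± 0.20, B2m by 0.17 ± 0.13, H2-D1 by -0.14 ± 0.13 and H2-Q7 by 0.91 ± 0.96. Without Hivep3-/- replicate 1, H2-K1 (0.62) and H2-Q7 (3.53) were called, the latter resting on the 2 UMIs of replicate 2 in stage 0-like cells. Of the pathway list Calr (0.55), Pdia3 (0.48) and Psme2 (0.38) were called, each with a higher log2 difference in Hivep3-/- than in C57BL/6. Calr and Pdia3 belong to the 6 peptide loading genes of the list, of which 1 was called higher and 2 lower in C57BL/6. For Calr and Pdia3 the term is therefore not shown to be a larger rise. In the tests within classes 2 of the pathway list were called, both in cycling-like cells: H2-Q6 higher (2.21) and Psme2 lower (-0.80). In that class 4.25% of all genes tested were called. With 2 libraries against 2, the SE of the log2 difference in the heavy chains ran from 0.13 (H2-Q7 in iNKT1-like cells) to 0.82 (H2-Q7 in stage 0-like cells).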

How the data were processed

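Thymic iNKT cells of 2 C57BL/6 and 2 Hivep3-/- mice were profiled with 1 library per mouse, with groups and replicate numbers as GEO's sample labels give them. Raw UMI counts per gene and barcode were deposited by the authors, whose processing notes name Cell Ranger 3.1.0 and mm10. Cells with at least 500 and under 4100 genes, at least 1000 UMIs and under 6% mitochondrial UMIs were kept. Clusters were built in R 4.3.3 with Seurat 5.3.0 (2000 variable genes, 30 components from irlba 2.3.5.1, libraries aligned by mutual nearest neighbours among 20 found with RANN 2.6.2, resolution 0.8). In all, 335 genes were left out of the variable genes, among them the 10 described. Clusters were named from marker lists, and a cluster that met no naming rule stayed unnamed. Scrublet, run through scanpy 1.11.5, called 0 to 5 doublets per library and was not relied on.

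UMIs were summed per library and class and tested with edgeR 4.0.16 (filterByExpr, TMM, quasi-likelihood test, Benjamini-Hochberg adjustment over all genes tested, call at an adjusted p under 0.05), with library as a block between classes. The libraries are separate mice, so p-values for genotype within a class measure the spread between mice. In fits with library as a block, differences between mice are taken out. Those p-values measure how differences between classes vary from mouse to mouse. Alternatives were DESeq2 1.42.0, unscaled UMI totals, UMIs per cell, no filter on low counts, other resolutions, removal of the 5% highest doublet scores, each library left out and other blocks. On simulated counts the test of iNKT1-like over stage 0-like cells in C57BL/6 recovered 61.2% of 2-fold and 88.7% of 4-fold changes among 11009 genes. The genotype test recovered 52.6% of 2-fold changes in stage 0-like and 69.1% in iNKT1-like cells. Apart from the changes put in, all simulated sums shared a common gene profile, without the differences between classes and mice that the data hold. The genes described and the lists were chosen with earlier results of these data known. Named genes were the 10, up to 4 called genes of the pathway list with the largest change per comparison, and the 5 genes most like B2m and Cd1d1. Other pathway genes, the class II and thymocyte genes and the leaders of clusters were named after their values were seen. Free RNA in droplets was not removed.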

Additional observations from a re-analysis of the deposited data

How the results depend on the processing

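Of the 1566 single-gene values computed under alternatives, 1442 counted as the same, 34 passed the threshold only under the alternative, 28 lost it, 54 moved and 8 turned. Where a test was made, the same means an unchanged direction and side of the threshold, or no call in both. Where a library left out within a genotype allowed no test, it means a value within the SE of the reported one. Moved means beyond that SE. Psmb8 turned most often. Over stage 0-like cells of C57BL/6 it became -0.22 in iNKT2-like cells with UMI totals and 0.20 in iNKT1-like cells with cluster 11 alone, and in Hivep3-/- 0.069 (UMIs per cell) and 0.23 (cluster 11 alone) in iNKT2-like and 0.088 (cluster 11 alone) in iNKT1-like cells. With UMIs per cell, iNKT1-like over iNKT2-like cells gave -0.14 for H2-D1 in C57BL/6 and -0.42 for B2m and -0.50 for Tap1 in Hivep3-/-. The cause was not tested. That scaling moved the median of all genes by -1.09 and -0.57 in this step, with 2 of 8 called genes higher in C57BL/6 and 4 of 10 in Hivep3-/- (4 of 8 and 4 of 5 as reported). All-gene calls were then 9349 (5468 as reported, of which 2920 higher, against 456) and 6834 (3629). DESeq2 gave 2136 for that step in Hivep3-/- and 811 in the interferon-signature cluster (1443). With cluster 11 alone, calls over stage 0-like cells in C57BL/6 were 2373 (4086) for iNKT2-like and 2928 (5484) for iNKT1-like cells.

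Without the replicate block by library, iNKT1-like over iNKT2-like cells gave 3144 calls in C57BL/6 and 1504 in Hivep3-/-, iNKT2-like over stage 0-like cells 2923 (4552) in Hivep3-/-, and the interferon-signature cluster 376, with 5 of the 10 genes. That cluster gave 833 calls in C57BL/6 alone and 941 to 1305 with 1 library left out, the fewest without Hivep3-/- replicate 1. A replicate block by mouse number in the genotype contrasts gave 176 calls in iNKT1-like (74), 24 in iNKT17-like (5), 184 in iNKT2-like (54) and 214 in stage 0-like cells (51). The labels do not say that mouse numbers pair animals, and with 2 pairs the shared deviation (r = 0.12 to 0.18) does not settle it.

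For genotype, the genes called among the 10 were 0 to 2 in cycling-like cells and 0 to 1 in each of the stage 0-like, iNKT2-like and iNKT17-like classes with 1 library left out, and 0 to 2 for the interaction, which had 3 with UMIs per cell. In cycling-like cells there were 0 with UMI totals, 0 at resolution 0.4 and 2 without the filter on low counts, which also gave 2 in iNKT2-like and 1 in iNKT17-like cells. All-gene calls ran from 26 to 111 in iNKT1-like, 37 to 76 in iNKT17-like, 65 to 249 in iNKT2-like and 48 to 264 in stage 0-like cells, and 111 to 340 for the interaction (349) with 1 library left out. Without the filter they were 462, 94, 430 and 259 in the same order, 1173 in cycling-like cells (436) and 529 for the interaction, which gave 847 with UMIs per cell and 21 with cluster 11 alone. Stage 0-like cells gave 90 with cluster 8 alone, 0 with cluster 11 alone and 22 at resolution 0.4. In iNKT2-like cells the calls were 105 with DESeq2, 28 with UMI totals, 24 at resolution 0.4 and 35 at 1.2, in iNKT17-like cells 8 at 0.4, and in iNKT1-like cells 168 with DESeq2. The interferon-signature share differed by -2.87 to -0.20 points with 1 library left out. Leaving out a library within a genotype leaves 1, so no such test was made there, and resolution 0.4 had no interferon-signature cluster.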
